A study of Mus musculus with 22 samples.

Results

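Matrix metalloproteinases and their inhibitors were followed through the ulna of mice whose right forelimb had been loaded and whose left had not. The set holds 10 genes, taken by name as the metalloproteinase and inhibitor genes of mesenchymal cells: the proteases Mmp2, Mmp3, Mmp13, Mmp14 and Mmp16, and the inhibitors Timp1, Timp2, Timp3, Timp4 and Reck. Each matched exactly 1 of the 25471 genes counted, and 10 of 10 passed the filter on low counts that left 18793 genes for testing. RNA came from the middle part of the ulna in 22 libraries from 11 mice, a loaded right limb and a non-loaded left limb from each. Of the mice, 7 were wild type (WT; mice 685, 686, 687, 690, 692, 694 and 699) and 4 were a conditional knockout of Tlr4 (CKO; mice 688, 691, 693 and 698), which encodes Toll-like receptor 4, a sensor of bacterial lipopolysaccharide on innate immune cells. The labels used here do not name the cells that carried the deletion, the alleles of the WT mice, the loading regime, the time of harvest or the age of the animals. The question the groups address is how loading changes gene expression in the bone, and whether that change depends on Tlr4.

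Matrix metalloproteinases are zinc proteases that cut collagens and other proteins of the extracellular matrix. Most are secreted as inactive proenzymes, and some, the membrane types, stay anchored at the cell surface, where they also activate others. In bone they open the collagen network for growth, remodelling and repair, and the protease made by Mmp13 is a main collagenase of osteoblast-lineage cells and hypertrophic cartilage. TIMPs are small secreted proteins that block the active site of these enzymes, and Reck is a membrane-anchored inhibitor.

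In GRCm38 (GENCODE M21) the proteases lay at separate loci, apart from Mmp13 and Mmp3, which share the metalloproteinase cluster of chromosome 9. The annotation places Mmp13 (ENSMUSG00000050578) on chromosome 9 from 7272514 to 7283331, plus strand; Mmp3 (ENSMUSG00000043613) on chromosome 9 from 7445822 to 7455975, plus strand. It places Mmp2 (ENSMUSG00000031740) on chromosome 8 from 92827291 to 92853420, plus strand, Mmp14 (ENSMUSG00000000957) on chromosome 14 from 54431612 to 54445364, plus strand, and Mmp16 (ENSMUSG00000028226) on chromosome 4 from 17852893 to 18119145, plus strand. Of the inhibitors, it places Timp1 (ENSMUSG00000001131) on chromosome X from 20870166 to 20874735, plus strand, Timp2 (ENSMUSG00000017466) on chromosome 11 from 118301069 to 118355740, minus strand, and Timp3 (ENSMUSG00000020044) on chromosome 10 from 86300372 to 86349506, plus strand. It places Timp4 (ENSMUSG00000030317) on chromosome 6 from 115241892 to 115252205, minus strand, and Reck (ENSMUSG00000028476) on chromosome 4 from 43875530 to 43944806, plus strand. Timp1, Timp3 and Timp4 each lie inside a synapsin gene (Syn1, Syn3 and Syn2) on the opposite strand. The synapsin genes had at most 59 counts in a library.

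The promoter sequences of Mmp13, Mmp3 and Timp1 are shown first. The former pair carry an exact match to a motif of an early-response factor, and the latter has no exact match in the same window. Each runs 5′ to 3′ on the coding strand from 250 bases before to 50 bases after the RefSeq start (GRCm38.p6), at chr9:7272264-7272563 for Mmp13, chr9:7445572-7445871 for Mmp3 and chrX:20869916-20870215 for Timp1. Capitals mark matches on either strand to 3 motifs: TGANTCA, the AP-1 motif bound by Fos and Jun proteins; TGTGGT, a core RUNX motif, whose reverse complement reads ACCACA; and TATAAA, the TATA box.
Mmp13: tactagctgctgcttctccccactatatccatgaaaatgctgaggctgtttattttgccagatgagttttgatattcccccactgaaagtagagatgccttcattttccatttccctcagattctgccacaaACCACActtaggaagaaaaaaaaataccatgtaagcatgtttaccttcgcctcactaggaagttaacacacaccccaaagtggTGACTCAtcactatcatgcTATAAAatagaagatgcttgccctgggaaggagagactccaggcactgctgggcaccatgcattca
Mmp3: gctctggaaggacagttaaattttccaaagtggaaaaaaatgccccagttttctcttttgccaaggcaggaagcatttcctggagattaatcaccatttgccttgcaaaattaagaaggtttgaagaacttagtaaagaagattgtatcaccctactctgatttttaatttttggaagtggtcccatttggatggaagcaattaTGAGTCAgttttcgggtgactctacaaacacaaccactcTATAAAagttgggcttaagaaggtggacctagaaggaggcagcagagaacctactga
Timp1: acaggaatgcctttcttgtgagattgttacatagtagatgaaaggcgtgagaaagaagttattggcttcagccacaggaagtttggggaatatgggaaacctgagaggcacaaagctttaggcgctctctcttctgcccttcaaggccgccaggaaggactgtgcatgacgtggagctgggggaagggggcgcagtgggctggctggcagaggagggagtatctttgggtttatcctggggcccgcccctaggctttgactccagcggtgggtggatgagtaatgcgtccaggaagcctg
In Mmp13 the AP-1 match began 35 bases before the listed start, the RUNX match 118 bases before it and the TATA match 16 bases before it. In Mmp3 the AP-1 match began 46 bases and the TATA match 7 bases before the listed start. RefSeq promoters were found for 8 of the 10 genes, Mmp2 and Mmp16 having no entry in the table used. Among the 8, Mmp14 had a RUNX match 114 bases before its start. Timp1, Timp2, Timp3, Timp4 and Reck held no exact match to the 3 motifs. The Timp1 window does hold TGAGTAA, which differs from the AP-1 motif in a single letter. So do TGTCTCA in the Timp4 window and GGAATCA in the Mmp14 window, so a near match is not particular to Timp1. Such near matches were not counted. Of 32851 promoter windows of this length, 7.81% held the AP-1 motif, 16.8% the RUNX motif and 13.6% the TATA motif. These are matches of letters, not measured binding sites.

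Library totals ran from 21999891 to 42833729 counts. Skeletal muscle RNA was present in each library: the 16 muscle markers summed to between 23600 and 187100 CPM (counts scaled to the library size), against 2907 to 35080 CPM for the 12 osteoblast markers and 2846 to 19550 CPM for the 10 neutrophil markers. All of the osteoblast and osteocyte markers passed the filter, so the labelled bone was represented, together with muscle and marrow. With bulk RNA, fewer cells of a type and less RNA per cell cannot be told apart. Counts over the whole of Tlr4 do not check a conditional deletion: they were 24.9 to 42.2 CPM in WT and 24.9 to 33.8 CPM in CKO libraries. Ltbp2, a latent TGF-beta binding protein whose level separated the genotype labels, was 26.5 to 73.5 CPM in 13 WT libraries and 205.1 to 343.9 CPM in 7 CKO libraries. The library labelled loaded WT 686 went the other way with 380.2 CPM, as did the library labelled loaded CKO 688 with 38.4 CPM. The limb differences of Timp1 and Mmp16 are therefore also given without mice 686 and 688. Other values that use these libraries, such as levels, directions and correlations over mice, are given with them. The non-loaded libraries of mice 691 and 699 stood apart in makeup, with muscle scores (mean log2 CPM of the muscle markers) of 9.06 and 10.09, the lowest of the non-loaded limbs, and marrow scores of 7.43 and 7.52, the highest of them.

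Compared per kilobase of exon, Timp2 was the most abundant of the 10 genes, with 75.4 ± 13.9 CPM per kb (SD, 22 libraries). Timp2 encodes an inhibitor that also assists in the activation of the Mmp2 proenzyme. Mmp13 followed with 54.6 ± 17.02 CPM per kb and was below Timp2 in 20 of 22 libraries. Timp3, whose product binds to the matrix and also inhibits ADAM proteases, had 53.8 ± 9.60 CPM per kb. Mmp13 exceeded it in 13 of 22 libraries, so the pair were not separated beyond their spread. Mmp2, a gelatinase, had 44.5 ± 16.6 CPM per kb and lay below Timp3 in 19 of 22 libraries. Mmp14, the membrane-type protease that activates the Mmp2 proenzyme, had 16.2 ± 3.75 CPM per kb, less than Mmp2 in 22 of 22 libraries although the ranges overlapped. The next 3 genes formed one level: Reck at 4.54 ± 0.706, Timp1 at 4.18 ± 1.94 and Timp4 at 4.10 ± 1.19 CPM per kb, Reck exceeding Timp1 in 13 and Timp1 exceeding Timp4 in 11 of 22 libraries. Mmp16, another membrane-type protease, had 0.717 ± 0.279 CPM per kb, with no overlap with Timp4, and Mmp3, or stromelysin, a protease of broad matrix substrates, was the lowest at 0.476 ± 0.694 CPM per kb, below Mmp16 in 18 libraries.

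**Figure D1:**
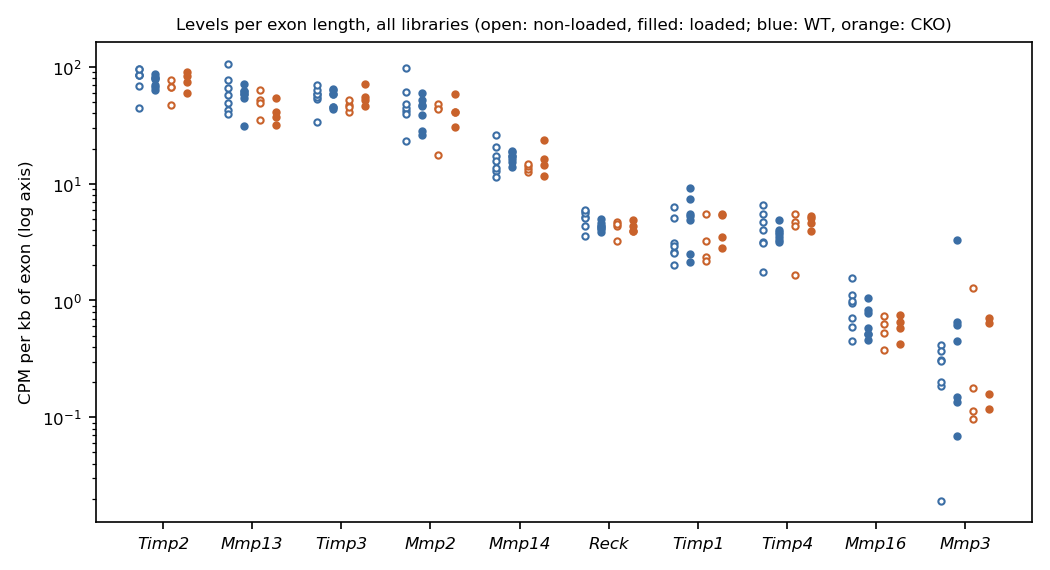
CPM per kilobase of exon (log axis) for the 10 genes in their order of mean level. Each point is 1 of 22 libraries, open for non-loaded and filled for loaded limbs, blue for WT and orange for CKO; Timp2 leads and Mmp3, which spans the widest range, is last.

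Summed per kilobase, Timp1, Timp2, Timp3 and Timp4 stood to the 5 proteases in a median ratio of 1.19 in non-loaded WT limbs (0.678 to 1.57). In loaded WT limbs the median was 1.19 (0.922 to 1.56). Reck was not part of the sum. In CKO limbs the median was 1.16 without loading (0.966 to 1.31) and 1.39 with it (1.25 to 1.69). Within mice, the ratio was higher in the loaded limb in 5 of 7 WT mice. In CKO mice 691, 693 and 698 it went from 0.966, 1.103 and 1.21 to 1.69, 1.25 and 1.47, and in mouse 688 it was 1.31 in both limbs. The largest of these differences was in mouse 691, whose non-loaded library stood apart. The difference was not tested, the ranges of the 4 groups overlapped, and the ratio compares transcripts, not protein or enzyme activity.

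None of the 10 genes passed an adjusted p of 0.05 in edgeR's quasi-likelihood test in any of 6 contrasts. The background was low as well: across all 18793 genes, 0.00532% passed for the WT loading effect, 0.016% for that in CKO mice, 0.0905% for the mean of the 2 genotypes, and 0% for the difference in loading effect between genotypes, for CKO against WT in non-loaded limbs and for CKO against WT in loaded limbs. At an unadjusted p under 0.05, the loading effect in WT had 1 of the 10 genes (Reck) against 2.34% of all genes, that in CKO had 0 against 3.6%, and there were 0 for the mean loading effect against 3.17% and 0 for the difference between genotypes against 2.6%. For CKO against WT it was 2 of the 10 in non-loaded limbs (Mmp16 and Reck) against 3.04% of all genes, and 0 in loaded limbs against 6.81%. These counts are from a fit that does not pair the limbs, and which genes are reached changes with pairing. With mouse as a block they were 2 of 10 for loading in WT (Mmp16 and Timp1, without Reck) against 3.47% of all genes, 0 of 10 in CKO against 5.23%, 1 of 10 for the mean effect (Timp1) against 4.25%, and 1 of 10 for the difference between genotypes (Mmp16) against 3.98%, again with 0 adjusted calls among the 10. DESeq2 gave 0 adjusted calls among the 10 as well, where 11, 22, 31, 0, 5 and 1 of 25467 genes passed in the same order of contrasts. At an unadjusted p under 0.05 it had 2, 0, 0, 0, 2 and 0 of the 10 genes. Of the 25467 genes, 716, 977, 850, 861, 914 and 2029 reached that level in DESeq2.

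In direction, 3 of the 10 genes had a log2 fold change above 0 for loading in WT, with a median of -0.11, where 47.7% of all genes were above 0. With mouse as a block and the muscle and marrow scores as covariates the count was 6 of 10 with a median of 0.02, which turns the direction. For loading in CKO it was 9 of 10 with a median of 0.19, Mmp13 being the exception, against 48.3% of all genes. Without mouse 691 this count was 6 of 10, and with the muscle and marrow scores as covariates 4 of 10. For CKO against WT in non-loaded limbs 1 of 10 was above 0 (Mmp3), with a median of -0.28, against 49.3% of all genes. That count was 3 of 10 with the covariates. Medians over all genes were within 0.05 of 0 on the log2 scale in each contrast. The contrasts share their libraries (the non-loaded CKO limbs enter both of the latter), so their directions are not separate observations.

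**Figure D2:**
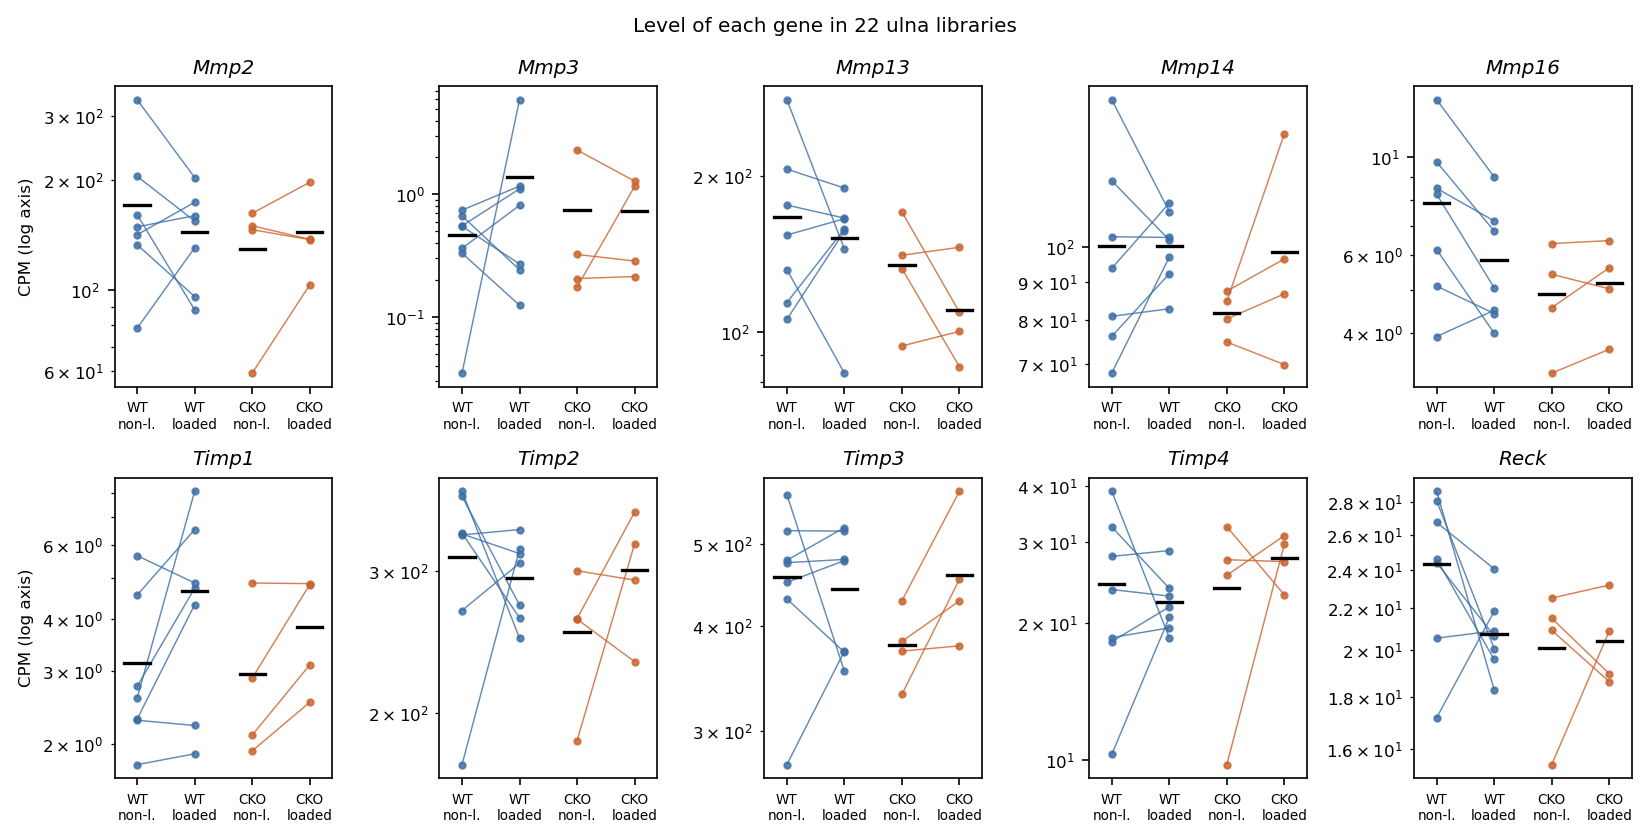
CPM (log axis, a separate range for each gene) in the 22 libraries. Lines join the limbs of a mouse and black bars are group means; the groups overlap for each gene, and in the WT panel for Mmp16 the line rises for 1 of 7 mice.

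Timp1 encodes a secreted inhibitor that is known to be inducible in many stromal cells. In the non-loaded WT limbs it ranged from 1.79 to 5.66 CPM with a median of 2.58, and in the loaded WT limbs from 1.90 to 8.09 CPM with a median of 4.73. In CKO mice 688, 691, 693 and 698 it was 2.10, 1.93, 2.88 and 4.87 CPM in the non-loaded limb and 3.097, 2.52, 4.83 and 4.85 CPM in the loaded limb. The groups overlapped, but the loaded limb was higher in 5 of 7 WT and 3 of 4 CKO mice. The mean limb difference was 0.48 ± 0.53 log2 units over all mice (SD, n = 11), with a two-sided exact sign-flip permutation p of 0.0117. Adjusted over all genes that p became 0.786. Between the Timp1 difference and that of the marrow score, r was -0.379 over all mice (permutation p = 0.2525, adjusted over all genes 0.334). Without mice 691 and 699 this r was -0.141. Over the 7 WT mice it was -0.858 (exact permutation p = 0.0155, not adjusted). The part of marrow content in the Timp1 difference was not tested. By the exact sign-flip test 4.72% of all genes reached p under 0.05 over all mice, Timp1 being the 1 of the 10 that did. Of all genes, 8.94% were higher in the loaded limb in at least 8 of 11 mice. Without mice 686 and 688 the Timp1 difference was 0.43 with an exact permutation p of 0.0469. The largest difference, 1.63, came from WT mouse 699, whose non-loaded library is one of those that stood apart. In edgeR the mean loading effect on Timp1 was 0.48 ± 0.27 (SE) on the log2 scale, with an adjusted p of 0.999. With mouse as a block it was 0.47 ± 0.17 (SE), with an adjusted p of 0.965. With the muscle and marrow scores as covariates it was 0.46 (adjusted p = 0.9999), and with block and covariates together 0.48 (adjusted p = 0.463). Without mouse 699 the WT effect was 0.34, against 0.58 with it.

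Mmp16 activates proenzymes at the cell surface. In WT mice 685, 686, 687, 690, 692, 694 and 699 the non-loaded limb had 13.5, 8.24, 9.75, 8.50, 5.11, 6.18 and 3.93 CPM, and the loaded limb 9.02, 5.07, 6.81, 7.17, 4.43, 4.00 and 4.50 CPM. In CKO mice 688, 691, 693 and 698 the values were 4.57, 3.25, 6.38 and 5.44 CPM without loading and 5.62, 3.68, 6.48 and 5.04 CPM with it. The loaded limb was thus lower in 6 of 7 WT mice, mouse 699 being the exception, and higher in 3 of 4 CKO mice, while the groups overlapped. The osteoblast score is the mean log2 CPM of the osteoblast markers. Its limb difference was -0.626, -0.07, -0.391, 0.09, -0.28, -0.434 and -0.035 in the WT mice, in the same order. In the CKO mice it was 0.282, -0.082, 0.026 and -0.067. The part of bone content in the Mmp16 difference was not tested. The Mmp16 limb difference averaged -0.38 ± 0.31 log2 units in WT (SD, n = 7, two-sided exact sign-flip permutation p = 0.0312, adjusted over all genes 0.999). In CKO it averaged 0.10 ± 0.18 (SD, n = 4), where no exact permutation p can go below 0.125. Without mouse 686, whose loaded library went against its label and which had the largest decrease (-0.69), the WT mean was -0.33 with an exact permutation p of 0.0625. In WT, 3.75% of all genes reached an exact p under 0.05, and 5.94% were higher in the loaded limb in at most 1 of 7 mice. In edgeR the WT effect on Mmp16 was -0.43 ± 0.24 (SE), and with mouse as a block -0.39 ± 0.11 (SE), with an adjusted p of 1.0 in the former and 0.999 in the latter.

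The difference between the genotypes in the Mmp16 limb difference, CKO minus WT, was 0.48 log2 units (exact permutation over 330 splits of the 11 mice, two-sided p = 0.0303, adjusted over all genes 0.624). It was the 1 of the 10 genes at p under 0.05, against 3.9% of all genes. Without mice 686 and 688 it was 0.36 with an exact permutation p of 0.119. The edgeR test of the same difference gave 0.52 ± 0.41 (SE), adjusted p = 0.696, and with mouse as a block 0.48 ± 0.19 (SE), adjusted p = 0.601. In the non-loaded limbs Mmp16 was 7.88 ± 3.20 CPM in WT (SD, n = 7) and 4.91 ± 1.33 CPM in CKO (SD, n = 4), an edgeR log2 difference of -0.69 ± 0.29 (SE), adjusted p = 0.976. This difference was negative under each of the 20 alternatives run, between -0.84 and -0.51. The alternatives reuse the same libraries, so the shared sign is not separate evidence. In loaded limbs the edgeR difference for Mmp16 was -0.17 ± 0.29 (SE), adjusted p = 0.809. The non-loaded WT libraries also enter the WT loading effect and the genotype difference of the limb difference. Levels averaged over both limbs of a mouse differed by -0.38 between genotypes (exact permutation p = 0.224). By that measure 0 of the 10 genes reached p under 0.05, against 3.58% of all genes.

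**Figure D3:**
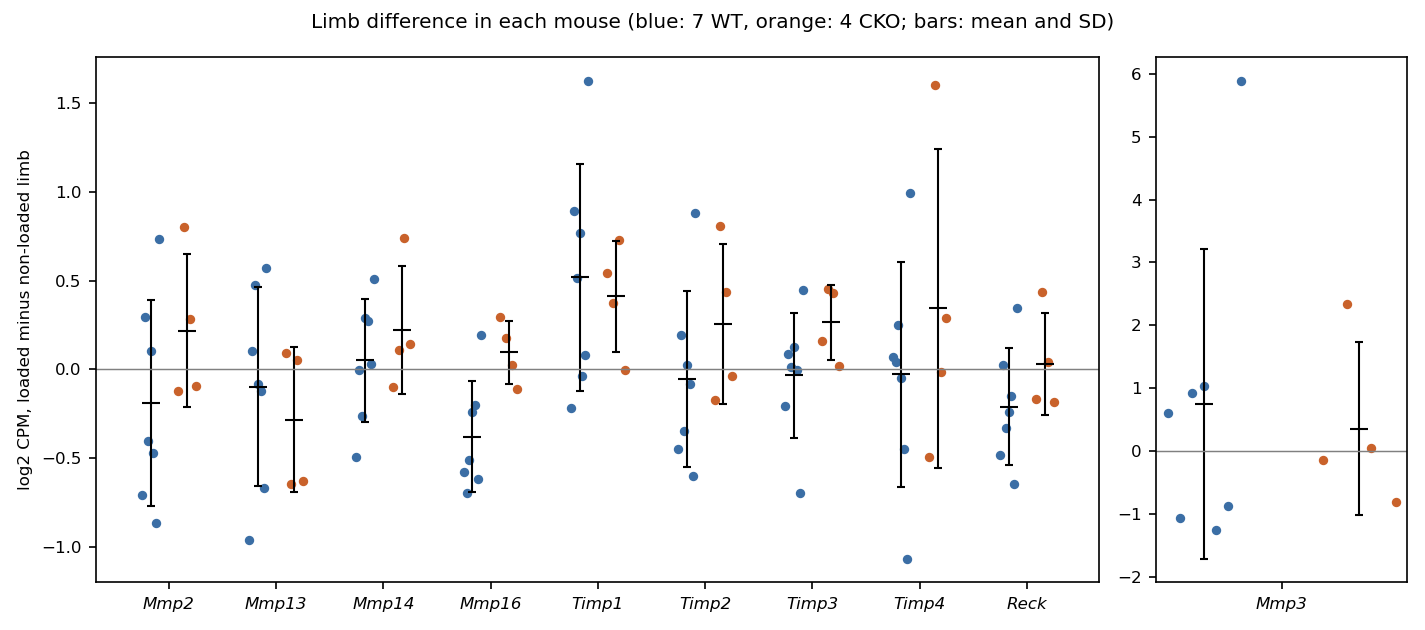
Loaded minus non-loaded limb in log2 CPM for each gene and mouse, with WT in blue (7 mice) and CKO in orange (4 mice), the mean as a tick and the SD as a bar; Mmp3 has its own axis. Mmp16 is below 0 in 6 of 7 WT mice, and Timp1 is above 0 in 8 of 11 mice.

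Mmp2 ranged from 78.5 to 332.2 CPM in non-loaded WT limbs (median 148.9) and from 88.2 to 203.3 CPM in loaded WT limbs (median 154.5). In CKO mice 688, 691, 693 and 698 it was 149.9, 59.2, 162.2 and 146.3 CPM without and 137.7, 103.3, 197.3 and 137.4 CPM with loading. The loaded limb was higher in 3 of 7 WT and 2 of 4 CKO mice, so no direction was common to the mice. Mmp13 ranged from 105.6 to 281.6 CPM in non-loaded WT limbs (median 153.9) and from 83.1 to 189.8 CPM in loaded WT limbs (median 158.1). In the same order of CKO mice it was 93.8, 170.6, 140.6 and 132.4 CPM without and 100.1, 109.0, 145.7 and 85.5 CPM with loading. Loaded CKO limbs had a mean of 110.1 ± 25.7 CPM of Mmp13 against 152.0 ± 33.4 CPM in loaded WT limbs, overlapping, with an edgeR log2 difference of -0.47 ± 0.25 (SE), adjusted p = 0.601. This difference uses the loaded libraries of mice 686 and 688. Over the 20 alternatives run, among them a fit without these mice, it lay between -0.63 and -0.35. Mmp14 ranged from 68.1 to 157.1 CPM in non-loaded WT limbs (median 93.8) and from 82.9 to 114.5 CPM in loaded WT limbs (median 102.3). It was 74.9, 80.3, 84.8 and 87.5 CPM in non-loaded and 69.9, 86.8, 141.6 and 96.5 CPM in loaded CKO limbs, higher with loading in 3 of 4 mice.

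Mmp3 was so sparse that single libraries set its means. It had between 1 and 167 counts in a library, the lowest and the highest both from WT mouse 699, with 1 count (0.0348 CPM) in the non-loaded and 167 counts (5.92 CPM) in the loaded limb. The other 6 WT mice had 0.332 to 0.744 CPM without and 0.125 to 1.17 CPM with loading. Of all 7 WT mice, 4 were higher with loading. The edgeR loading effect on Mmp3 in WT was 1.57 ± 0.76 (SE), adjusted p = 1.0, and without mouse 699 it was 0.22 ± 0.65 (SE), so that 1 mouse sets its size. In CKO limbs Mmp3 was 0.323, 0.175, 0.206 and 2.30 CPM without and 0.286, 1.16, 0.214 and 1.28 CPM with loading.

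Timp2 and Timp3 varied little next to Timp1, with the highest library 2.18 and 2.11 times the lowest. Timp2 ranged from 172.9 to 376.3 CPM in non-loaded WT limbs (median 333.2) and from 247.7 to 337.4 CPM in loaded WT limbs (median 306.6). It was 261.5, 185.1, 261.9 and 300.1 CPM in non-loaded and 231.7, 324.1, 354.6 and 292.2 CPM in loaded CKO limbs. Timp3 ranged from 273.9 to 571.5 CPM in non-loaded WT limbs (median 474.7) and from 353.2 to 522.3 CPM in loaded WT limbs (median 477.4). It was 383.1, 331.7, 428.0 and 373.1 CPM in non-loaded and 427.8, 453.8, 576.7 and 378.5 CPM in loaded CKO limbs, higher with loading in 4 of 4 mice by 0.27 ± 0.21 log2 units (SD, n = 4). Its exact permutation p was 0.125, the smallest that 4 mice allow, and 5.07% of all genes were higher in 4 of 4 CKO mice. Timp3 lies inside Syn3 on the opposite strand and shares 1733 exon bases with it, but Syn3 had only 8 to 38 counts in a library against 7869 to 20808 for Timp3.

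Reck had the narrowest range, its highest library being 1.86 times its lowest. It ranged from 17.2 to 28.7 CPM in non-loaded WT limbs (median 24.6) and from 18.3 to 24.1 CPM in loaded WT limbs (median 20.7). It was 20.9, 15.4, 22.5 and 21.5 CPM in non-loaded and 18.6, 20.9, 23.2 and 19.0 CPM in loaded CKO limbs. The loaded limb was lower in 5 of 7 WT mice and in 2 of 4 CKO mice. The edgeR effect of loading on Reck in WT was -0.23 ± 0.11 (SE), adjusted p = 1.0, and the CKO against WT difference in non-loaded limbs was -0.28 ± 0.13 (SE), adjusted p = 0.976. Over the WT mice the exact permutation test gave -0.21 ± 0.33 (SD, n = 7), p = 0.156. Over all mice the limb difference of Reck was -0.12 ± 0.32 (SD, n = 11), exact permutation p = 0.234, adjusted over all genes 1.0. Without mice 691 and 699, left out after the data had been seen, it was -0.24, with an unadjusted exact permutation p of 0.0156.

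Timp4 is known to be most abundant in heart and other muscle-rich tissue. It ranged from 10.3 to 38.9 CPM in non-loaded WT limbs (median 23.6) and from 18.5 to 28.8 CPM in loaded WT limbs (median 21.7). In CKO mice 688, 691, 693 and 698 it was 32.5, 9.75, 27.5 and 25.4 CPM without and 23.0, 29.8, 27.2 and 31.1 CPM with loading. The lowest values of Timp4 were in the non-loaded libraries of mice 691 and 699. Its limb difference followed that of the muscle score over the 11 mice, with Pearson's r = 0.966 and Spearman's rho = 0.973, each with a permutation p of 1e-05, the smallest that 100000 permutations can give, and adjusted p = 0.000174 over all genes. Without the 2 mice farthest from the median muscle score, 691 and 694, r was 0.894, and within the 7 WT mice it was 0.951 (exact permutation p = 0.000595).

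The other genes split by how their limb difference moved with tissue makeup. Relations to the muscle score passed an adjusted permutation p of 0.05 for 4 of the 10 genes, where 50.8% of all genes passed, and relations to the marrow score (erythroid, neutrophil and B-lineage markers) for 5 of 10, where 51.6% of all genes passed, so neither share was above the background. Against the muscle score, the Pearson correlations over 11 mice were 0.697 for Mmp2 (rho 0.600), 0.696 for Timp2 (rho 0.545) and 0.730 for Reck (rho 0.455), with adjusted permutation p of 0.0327, 0.0331 and 0.0238. Their raw permutation p were 0.0153, 0.0155 and 0.0104 for r and 0.0571, 0.0882 and 0.165 for rho. Without mice 691 and 694 these fell to 0.338, 0.369 and 0.298, so these 3 relations rest on those mice.

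Against the marrow score the correlations were negative: r = -0.815 for Mmp2 (rho -0.864), -0.826 for Timp2 (rho -0.845), -0.711 for Timp3 (rho -0.682), -0.880 for Timp4 (rho -0.864) and -0.823 for Reck (rho -0.745). Adjusted permutation p for these r were 0.00783, 0.00706, 0.0237, 0.000873 and 0.0059 over all genes. The raw permutation p were 0.00253, 0.00221, 0.0103, 0.00013 and 0.00175 for r and 0.00115, 0.00175, 0.0256, 0.00098 and 0.011 for rho. Without mice 691 and 699 the same r were -0.625, -0.633, -0.544, -0.774 and -0.622. For Mmp13 the relation to the marrow score had r = -0.081 and rho = -0.318 (raw permutation p = 0.812 and 0.343) over the 11 mice, but within the 7 WT mice r was -0.709 (exact permutation p = 0.0712) and rho -0.929. Mmp3, Mmp14, Mmp16 and Timp1 had r between -0.525 and -0.379 over the 11 mice without passing. Within the 7 WT mice Timp1 had r = -0.858 (exact permutation p = 0.0155, not adjusted) and rho = -0.857. The osteoblast score passed for 0 of the 10 and for 0 of all genes. Its r over the 11 mice ran from 0.136 for Mmp3 to 0.705 for Mmp16 (rho 0.636). For Mmp16 the raw permutation p of r was 0.0164, adjusted over all genes 0.956. Without mice 685 and 694, the farthest from the median osteoblast score, r for Mmp16 was 0.561. A sample richer in one tissue is poorer in others by construction of CPM, and the part of dissection in the limb differences was not tested.

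**Figure D4:**
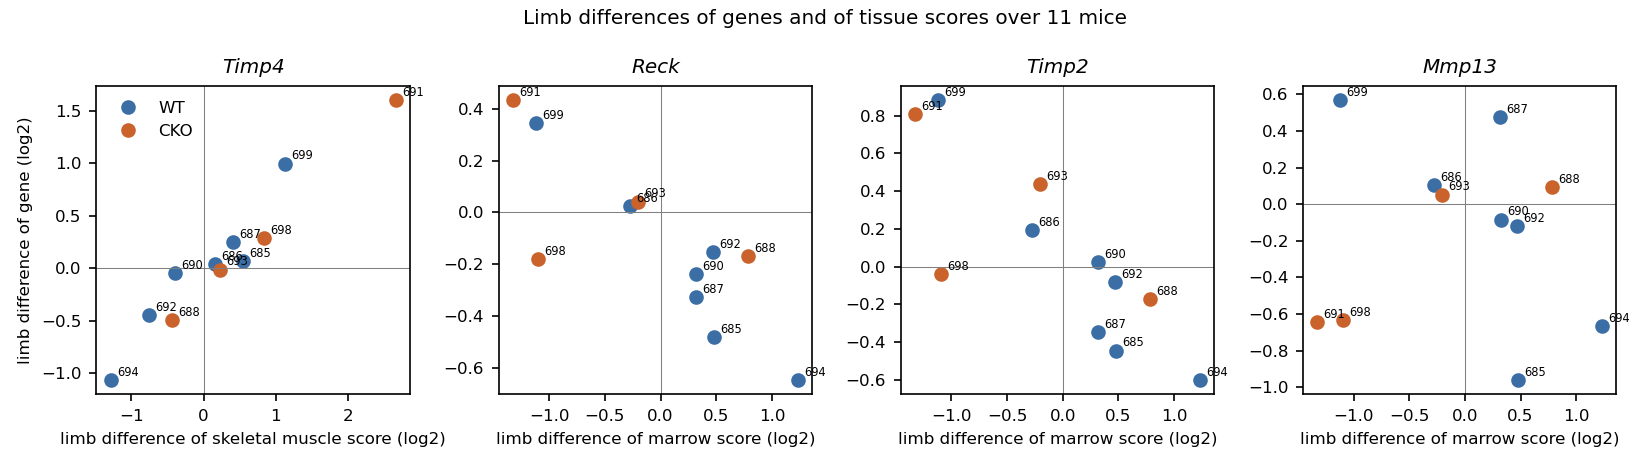
Limb difference of 4 genes (log2 CPM, vertical) against the limb difference of a tissue score (mean log2 CPM of its markers, horizontal), 1 point a mouse, WT in blue and CKO in orange, with mouse numbers. Timp4 follows the muscle score (r = 0.966), Reck and Timp2 go down with the marrow score (r = -0.823 and -0.826), and Mmp13 has r = -0.081 over 11 mice and -0.709 over the 7 WT mice.

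Single libraries held many of the extremes. The non-loaded library of CKO mouse 691 had the lowest level of Mmp2, Mmp16, Timp4 and Reck among the 22 libraries, and that of WT mouse 699 the lowest level of Mmp3, Mmp14, Timp2 and Timp3, which makes 8 of the 10 genes. The non-loaded library of WT mouse 685 was highest for Mmp2, Mmp13, Mmp14 and Mmp16.

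Likeness between the limbs of a mouse differed among the 10 genes. With genotype means subtracted, the loaded and non-loaded levels of Mmp16 correlated over the 11 mice with r = 0.867 (permutation p = 0.00053) and rho = 0.864 (permutation p = 0.00108), and r was 0.877 without the 2 mice farthest from the median. Timp1 had r = 0.619 (permutation p = 0.0413) and rho = 0.773 (permutation p = 0.00751), and r = 0.730 without the 2 farthest mice. For Timp2 r was -0.396 (permutation p = 0.234). The median over all genes was 0.155, with quartiles of -0.078 and 0.413, and 99.4% of genes had a lower r than Mmp16. Adjusted over all genes, the permutation p was 0.0895 for Mmp16 and 0.397 for Timp1, and 0 genes of the whole table passed 0.05.

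**Figure D5:**
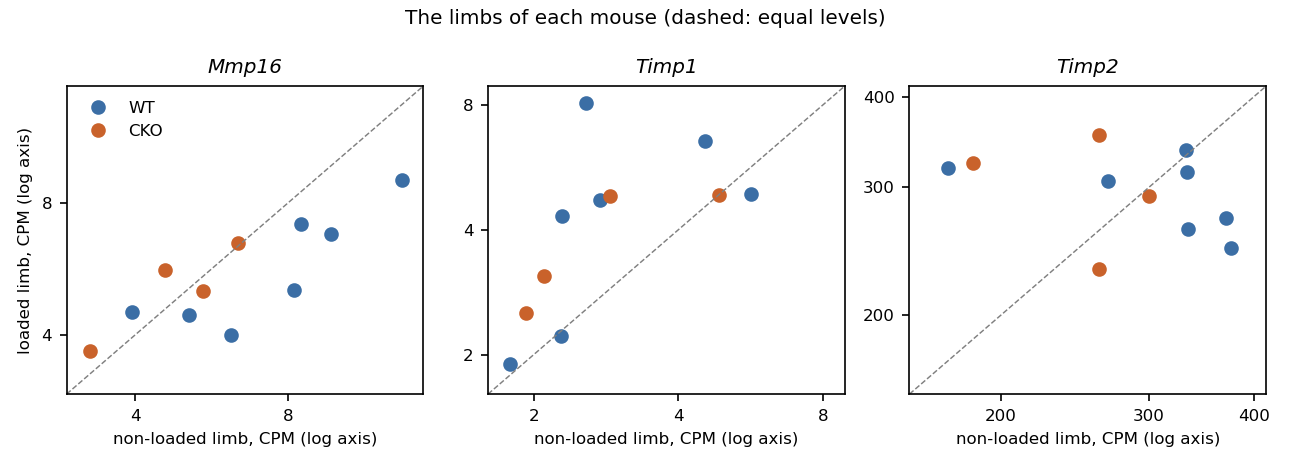
Loaded against non-loaded limb in CPM (both log axes) for Mmp16, Timp1 and Timp2, 1 point a mouse, WT in blue and CKO in orange; the dashed line marks equal levels. Mice with a high non-loaded limb also had a high loaded limb for Mmp16 (r = 0.867 with genotype means subtracted), while Timp2 had r = -0.396.

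Likeness over the 22 libraries, with group means subtracted, was ranked among named genes with a mean of at least 1 CPM. The values are descriptions across libraries that share tissue makeup. Mmp2 was most like Dpysl3 (r = 0.975), Col3a1, a fibrillar collagen of soft connective tissue (0.970), and Pcdh18 (0.968). Mmp16 was most like Sparc, a collagen-binding protein abundant in bone (0.944), Ano1 (0.943) and B3gnt9 (0.937). Mmp14 was most like Fam20a (0.930), Sdk2 (0.924) and Cd276 (0.906). Mmp13 had weaker companions in Itgav, an integrin subunit (0.789), Ctsk, the collagen-degrading protease of osteoclasts (0.732), and Insig1 (0.728). Those of Mmp3 were Ednra (0.898), Nsg1 (0.825) and Serping1 (0.813).

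Timp1 was most like Sfrp4, a secreted Wnt inhibitor (0.852), Creb3l1, a transcription factor of the secretory pathway in osteoblasts (0.824), and Col6a3 (0.796). Timp2 was most like Lix1l (0.949), Cnn3 (0.942) and Bmp7 (0.939), and Timp3 like Errfi1 (0.881), Angptl7 (0.864) and Lrrc8a (0.864). Timp4 was most like Amy1 (0.965), Lims2 (0.963) and Neurl2 (0.957). Reck was most like Timp2 (0.917), then Calhm5 (0.880) and Dkk3 (0.878). Among pairs within the 10 genes, Reck with Timp2 and Mmp2 with Mmp16 (0.881) were the closest, and Timp1 with Timp4 was the least alike (-0.072).

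The wider protease system was read from 3 further lists. Of 18 other metalloproteinases, 11 could be tested, and 0 passed an adjusted p of 0.05 in either direction in any of the 6 contrasts. Of these, Mmp9, the gelatinase of osteoclasts and neutrophils, had a mean loading effect of -0.41 ± 0.22 (SE), Mmp19 of 0.15 ± 0.13 and Mmp27 of -0.32 ± 0.28, each with an edgeR adjusted p of 0.999. Of 25 ADAM and ADAMTS proteases, 23 could be tested and 0 passed. Adamts4, an aggrecan-cleaving protease, was 1.44 ± 0.505 CPM in non-loaded and 2.35 ± 0.583 CPM in loaded WT limbs (SD, n = 7), and 1.17 ± 0.343 and 3.25 ± 2.27 CPM in CKO limbs (SD, n = 4). Its mean loading effect was 1.09 ± 0.26 (SE), with an edgeR adjusted p of 0.275. Adamts1 had 0.47 ± 0.16 and Adamts18 -0.51 ± 0.20, both with an adjusted p of 0.999.

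Of 20 activators, receptors and clearance factors, 19 could be tested and 0 passed. Ctsk had a mean loading effect of -0.61 ± 0.20 (SE; edgeR adjusted p = 0.955) and Cd44, a cell-surface hyaluronan receptor, 0.23 ± 0.13 (adjusted p = 0.999).

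The AP-1 and early-response list, whose proteins include those that bind the motif printed in capitals above, did contain genes that rose; it was drawn up with results of these libraries known, so its direction is not independent evidence. Of its 12 genes, 2 passed an adjusted p of 0.05 in edgeR for the mean loading effect, both higher: Fosb, an AP-1 subunit, at 2.06 ± 0.23 (SE; adjusted p = 9.03e-05) and Egr1, an immediate-early transcription factor, at 1.30 ± 0.18 (SE; adjusted p = 0.00176). Across all genes tested, 0.0905% passed for the mean loading effect. All 12 genes of the list had a fold change above 0, with a median of 0.74, against 45.7% of all genes. The list summed to 363.0 to 447.0 CPM in non-loaded and 403.5 to 593.4 CPM in loaded WT limbs, and to 324.6 to 399.9 and 465.0 to 576.9 CPM in CKO limbs. Beside this, Mmp13 and Mmp3, the genes with an exact AP-1 match, had mean loading effects of -0.21 ± 0.17 and 0.78 ± 0.63 (SE). Neither was called, with an edgeR adjusted p of 0.999 each. A link between the early-response genes and these genes was not tested, and the labels do not give the time of harvest. Timp1, whose window holds no exact match, had 0.48 ± 0.27 (SE, edgeR adjusted p = 0.999). Without mouse 699 the effect on Mmp3 was 0.11 ± 0.50 (SE), and over the alternatives run it lay between -0.22 and 1.43.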

How the data were processed

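Total RNA from 22 ulna samples had been made into libraries with a stranded total RNA kit from 4 ng, per the labels' protocols. The authors deposited expected counts per Ensembl gene, made with STAR and RSEM on GRCm38 per the submitters' processing notes; tool versions, annotation and strand setting: not given in the sources used here. These deposited estimated counts were whole numbers, so rounding changed 0 values. The lowest gene total was 10 counts.

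Counts were fitted in edgeR 4.0.16 (R 4.3.3; TMM scaling, filterByExpr, robust quasi-likelihood test, 4 group means, 18 residual degrees of freedom), with Benjamini-Hochberg adjustment over all 18793 genes tested and a threshold of 0.05. DESeq2 1.42.0 and limma 3.58.1 were alternatives. Log2 CPM used a prior count of 2. Exact tests flipped limbs within mice (128 arrangements in WT, 16 in CKO, 2048 in all) or permuted genotype over mice (330 splits). Correlations used 100000 permutations (20000 for the all-gene adjustment of the limb-to-limb r) in Python 3.11.15. On simulated counts for the WT contrast, 18642 genes with 200 changed, 76% of 2-fold and 44% of 1.5-fold increases were recovered, with 8 false calls. For the CKO contrast, with 18610 genes, these were 70% and 14%, with 4 false calls. In the data 1 and 3 genes passed in these contrasts. With 200 genes changed the adjusted threshold is easier to reach, so these shares can exceed recovery in the data. Counts were drawn separately for each gene, without tissue differences shared by genes.

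Limbs are paired by animal: the limbs of a mouse had correlated deviations from group means (over genes) of -0.256 to 0.415, over 0.1 in 7 of 11 mice. Separate mice are named by number in the labels. The 10 genes and all lists were chosen with earlier results of these data known. All 10 genes are named; of other lists, every called gene could be named and the 3 with the smallest p in the mean loading contrast. A gene that this rule names is not reported here. No protein sequences were used here.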

Additional observations from a re-analysis of the deposited data

Results flagged for a closer look

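Of 60 groups of 4 or 7 values examined for a single value far from the rest, 5 stood out, where chance gives about 1 in 20, or 3. Mmp2 had a log2 CPM of 5.89 in the non-loaded limb of CKO mouse 691, far below the other 3 CKO mice. Mmp3 had -3.31 in the non-loaded limb of WT mouse 699, from 1 count, and its limb difference there of 5.89 log2 units was far above the other 6 WT mice; with 1 count this size depends on the prior count. Mmp13 had 6.38 in the loaded limb of WT mouse 694, and Timp3 had 8.10 in the non-loaded limb of WT mouse 699, each far below the rest of its group. Mmp16 differed between genotypes in its limb difference by 0.476 log2 units (CKO minus WT, exact permutation p = 0.0303, adjusted over all genes 0.624).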

How the results depend on the processing

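None of the 10 genes passed an adjusted p of 0.05 in edgeR, or in the tool named by the setting, under the 24 other settings run, the lowest adjusted p being 0.218. That is Mmp16 for loading in WT with the replicate block and without mice 691 and 699, a setting chosen after seeing the data. The fit with the mouse as a replicate block thus gave 0 calls in each loading contrast, and changed no call. Of 60 fold changes (10 genes in 6 contrasts) 31 had 1 sign in every setting, among them those of Mmp16 and Reck for loading in WT (-0.52 to -0.34 and -0.34 to -0.15) and of Timp1 for the mean loading effect (0.36 to 0.59); 29 changed sign in some setting.

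The exact tests moved with single mice. For limb differences over all mice, 1 gene had an exact p under 0.05; this was 3 without mice 691 and 699 (added later) and 1 to 2 with each mouse left out in turn, 2 without mouse 688. For the genotype difference of the limb difference, 1 gene as reported became 0 without mice 686 and 688, and 0 to 1 with each mouse left out, 0 without 685, 688, 691, 693 or 694. For mouse mean levels, 0 genes became 2 without mouse 699, the range being 0 to 2. Shares of all genes with some mice left out are not given, so these counts cannot be set against a background. Mmp3 could not be tested when the CKO limbs were fitted alone. Its 1 to 167 counts a library limit its precision, as 52 to 228 counts limit that of Timp1.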
